A study of Gallus gallus with 3 samples.

Results

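Solitary H3K4me3-only peaks on the chicken microchromosomes are described here: narrow H3K4me3 peaks that stand alone, with no H3K27me3 peak over them and no second H3K4me3 peak close by. A member lies on a numbered chromosome from 11 upwards, is narrower than 2700 bp, shares no base with an H3K27me3 peak, and has no other H3K4me3 peak at a gap of 1000 bp or less. The rule found 2206 members on 18 chromosomes (11 to 28), which is 60.5% of the 3645 H3K4me3 peaks on those chromosomes (95% Wilson interval 58.9 to 62.1%) and part of a list of 12414 H3K4me3 peaks over all sequences. Embryos were White Leghorn chickens of the WT genotype, untreated, from eggs held at 38.5 °C. Their neural tubes were taken at HH30, a stage that Hamburger and Hamilton defined by outer form, and dissociated with trypsin before fixation. Sonicated chromatin was recovered with an antibody against H3K4me3 (Abcam) or H3K27me3 (Millipore), and DNA without immunoprecipitation served as the Input library. Each mark had 1 library; how many embryos it pooled is not stated, and a whole neural tube mixes progenitors with differentiating neurons.

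H3K4me3, the trimethylated lysine of histone H3 laid down by SET1 and MLL complexes, marks the nucleosomes around the start sites of active and poised promoters, most of them at CpG islands. H3K27me3 is the Polycomb mark of silent genes, many of them developmental regulators. A narrow H3K4me3 peak without H3K27me3 is the form usually seen at promoters of broadly expressed genes. Bird genomes carry small microchromosomes that are rich in genes, GC and CpG islands and recombine often, beside a few large macrochromosomes. Chromosome 16, which carries the major histocompatibility complex and the ribosomal RNA genes, is represented in this assembly by a short sequence only.

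No p-value was computed, because there was 1 library for each mark. Intervals are 95% counting intervals: exact Poisson for densities, Wilson for shares, and binomial order-statistic intervals for medians. They count each peak as independent, and variation among embryos is not in them. Peaks were not assigned to genes, since no gene annotation of galGal4, the assembly of the coordinates, was used here, and for the same reason the tissue was not checked against its marker genes. The peak score is the authors' value for each peak, on a scale that the files do not name. Among the members it ran between 52.05 and 3233.06. The value of exactly 3100 was shared by 261 members and exceeded by 28, so scores from 3100 upwards are called the top of the scale. Early versions of MACS wrote a transformed p-value as the score and gave tied values where that p-value became too small to be computed. The tie at 3100 has the look of such a limit, though no file states it. If it is one, tied peaks cannot be ranked against each other or against the 28 above them, a median of 3100 is a lower bound, and scores reflect statistical evidence, which grows with reads and peak size, and not the level of the mark.

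Each clause of the rule removed a different share of the H3K4me3 peaks. On microchromosomes 22.9% had another H3K4me3 peak within 1000 bp (836 peaks; interval 21.6 to 24.3%), against 26.5% on chromosomes 1 to 10 (2032 peaks; interval 25.6 to 27.5%). H3K27me3 shared bases with 15.8% of the microchromosome peaks (575 peaks; interval 14.6 to 17.0%) and with 19.3% on chromosomes 1 to 10 (1480 peaks; interval 18.5 to 20.2%). Widths of 2700 bp or more were found for 5.98% on microchromosomes (218 peaks; interval 5.26 to 6.80%) and for 4.78% on chromosomes 1 to 10 (366 peaks; interval 4.32 to 5.28%). More than 1 clause applied to 184 microchromosome peaks. What remained was a larger share on microchromosomes, 60.5%, than on chromosomes 1 to 10, where the same rule found 4336 members among 7657 peaks (56.6%; interval 55.5 to 57.7%). The share of members exceeded the value of every one of chromosomes 1 to 10 on 11 of 18 microchromosomes, with the highest share on chromosome 21 (70.7%) and the lowest on chromosome 20 (50.9%). On 3 of 18 it lay below the pooled share of chromosomes 1 to 10. Chromosome 1 had the highest share of the large ones, 61.1% (interval 58.8 to 63.4%), which is slightly above the pooled microchromosomes. A share of this size was thus not particular to microchromosomes.

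The members and other peaks nearest to each limit of the rule were these. The widest members lay at chr21:6461561-6464255 (2695 bp, score 2055.12), chr11:17130124-17132816 (2693 bp, score 1064.54) and chr13:7790467-7793154 (2688 bp, score 3100), and the first peaks beyond the width limit were chr11:7141059-7143758 (2700 bp, score 3100), chr20:6810752-6813453 (2702 bp, score 3100) and chr26:5051677-5054378 (2702 bp, score 2367.36). At the gap limit, chr26:4251328-4252389 and chr26:4253399-4254909 were members 1009 bp apart, with scores of 746.4 and 2798.63, and chr17:547326-548092 was a member with a gap of 1014 bp. A pair on chromosome 20 with a gap of 992 bp, chr20:10579800-10580427 and chr20:10581420-10582323, fell outside, as did chr11:6841442-6842307 with a gap of 982 bp. At the limit set by H3K27me3, the peaks outside with the smallest overlap were chr15:11127912-11129382 (2 bp shared), chr28:1189000-1189780 (43 bp) and chr13:12659813-12660967 (60 bp). The members nearest to H3K27me3 on the inside are given with the distances.

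Under the rule as given, solitary peaks were packed 2.22 times as densely on microchromosomes as on the large chromosomes. Under the other settings tried, the ratio ran from 1.96 to 2.35. Pooled over chromosomes 11 to 28 there were 12.9 members per Mb of span (interval 12.3 to 13.4), the span running from the start of a chromosome to the last peak end of either mark. On chromosomes 1 to 10 there were 5.80 per Mb (interval 5.63 to 5.98), a ratio of 2.22 (interval 2.11 to 2.34). All H3K4me3 peaks together were 2.08 times as dense on microchromosomes (interval 1.996 to 2.16), and H3K27me3 peaks 2.49 times as dense (interval 2.35 to 2.63), so the solitary peaks lay between. Each of the 18 microchromosomes was denser than the pooled value for chromosomes 1 to 10, and 15 of 18 were denser than chromosome 10, the densest of the large ones at 9.60 per Mb.

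**Figure D1:**
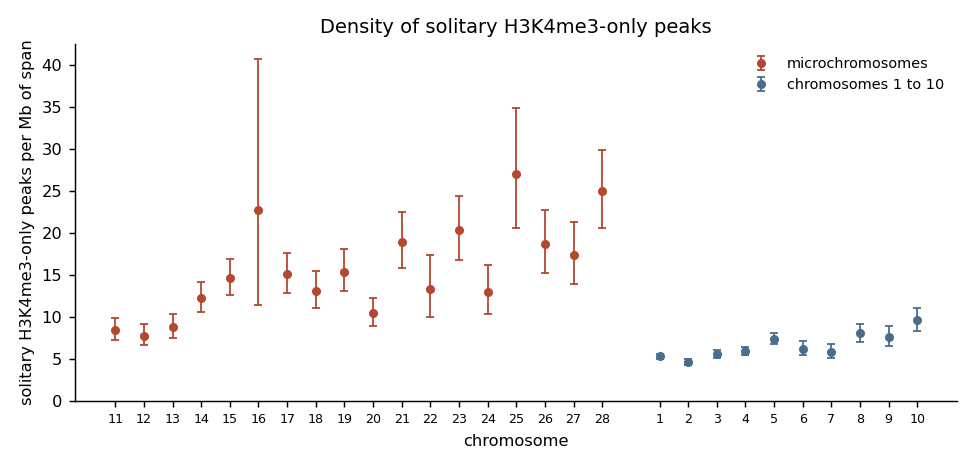
Solitary H3K4me3-only peaks per Mb of span for each chromosome, microchromosomes (red) left of chromosomes 1 to 10 (blue); bars are exact 95% Poisson intervals. Chromosome 25 has the highest density (27.03 per Mb) and chromosome 12 the lowest of the microchromosomes (7.75 per Mb).

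Shorter microchromosomes had higher densities, and the shorter of chromosomes 1 to 10 tended to as well. Chromosomes 1, 2 and 3 had 5.28, 4.62 and 5.55 members per Mb, and chromosomes 8, 9 and 10 had 8.04, 7.64 and 9.60. Chromosomes 4, 5, 6 and 7 had 5.93, 7.39, 6.21 and 5.85. Chromosomes 10 and 12 both spanned 19.9 Mb, so length does not part the sets at their border. Across the 18 microchromosomes, span and density had a Pearson correlation of -0.85 and a Spearman correlation of -0.85, and of -0.80 and -0.79 without chromosomes 11 and 12, the pair farthest from the median span. These are descriptions of 18 chromosomes that share 1 library and 1 peak call. Span is also the divisor of the density, so a negative correlation can arise partly by construction. Chromosome 16, the shortest with 11 members on 0.484 Mb, was kept in both versions. The longest microchromosomes were the least dense: chromosome 12 had 7.75 members per Mb (154 members; interval 6.58 to 9.08), chromosome 11 had 8.41 (163 members; interval 7.17 to 9.81) and chromosome 13 had 8.81 (156 members; interval 7.48 to 10.3). Their intervals overlap one another and that of chromosome 10. Chromosome 20 followed with 10.4 per Mb (149 members; interval 8.84 to 12.3), below chromosome 14 with 12.2 (185 members; interval 10.5 to 14.1).

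The next 7 chromosomes in the order had densities from 13.0 to 17.3 per Mb, with intervals that overlap one another. These were chromosome 24 with 13.0 per Mb (82 members), chromosome 18 with 13.1 (147 members), chromosome 22 with 13.3 (54 members), chromosome 15 with 14.6 (185 members), chromosome 17 with 15.1 (157 members), chromosome 19 with 15.4 (153 members) and chromosome 27 with 17.3 (90 members). Chromosome 26 had 18.7 per Mb (99 members), chromosome 21 had 18.9 (128 members) and chromosome 23 had 20.3 (116 members). The highest values were those of chromosome 25 with 27.03 per Mb (59 members; interval 20.6 to 34.9) and chromosome 28 with 24.9 (118 members; interval 20.6 to 29.8). Their intervals overlap, and they lie above that of every longer microchromosome except 21, 23, 26 and 27. Chromosome 16 had 22.7 per Mb, but from 11 members on 0.484 Mb, with an interval of 11.4 to 40.7.

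Members were unevenly spread over windows of 1 Mb, which are pooled here and so also mix chromosomes of different density. Of 163 complete 1 Mb windows on microchromosomes, the median window held 11 members (quartiles 5 and 17, highest 34), against 5 (quartiles 3 and 8, highest 36) in 742 windows on chromosomes 1 to 10. More than 20 members were found in 29 microchromosome windows (17.8%) and in 8 windows of chromosomes 1 to 10 (1.08%), while 3 microchromosome windows (1.84%) and 55 windows of chromosomes 1 to 10 (7.41%) held none. The windows with most members were chosen after their values were seen. They were the second Mb of chromosome 25 with 34 members, and the windows from 5 to 6 Mb on chromosome 17, from 10 to 11 Mb on chromosome 18 and from 5 to 6 Mb on chromosome 19 with 32 each. These windows also held H3K27me3 peaks: 4 in that of chromosome 25, 8 in that of chromosome 17, 22 in that of chromosome 18 and 13 in that of chromosome 19.

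Some long series of H3K4me3 peaks were made of members alone, and those placed here were chosen after their values were seen. The 2206 members formed 662 runs, a run being a series of neighbouring H3K4me3 peaks that all met the rule. The median run held 2 members and 214 held a single member. Runs of 10 or more numbered 27 and took up 363 members. The longest held 24 members over 977 kb of chromosome 20, from 1000256 to 1977034, with 1 H3K27me3 peak between them. The second held 22 members over 429 kb of chromosome 17, from 5081127 to 5510320, and no H3K27me3 peak. The longest run on chromosomes 1 to 10 also held 24 members and lay on chromosome 1. Chromosome 1 held 1685 H3K4me3 peaks and chromosome 20 held 293, and more peaks leave more room for a long run. The longest run of a chromosome had a median of 13 members on microchromosomes and of 13.5 on chromosomes 1 to 10. The median chromosome held 137.5 members on microchromosomes and 335.5 on chromosomes 1 to 10. Runs were not compared at equal numbers of peaks, so whether long runs are particular to either set was not tested. Stretches without a member were also long. The longest, on chromosome 11 from 11586901 to 13423310 (1.84 Mb), held 2 other H3K4me3 peaks and 1 H3K27me3 peak. The next, on chromosome 19 from 844643 to 2527106 (1.68 Mb), held 4 H3K4me3 and 11 H3K27me3 peaks. The coefficient of variation of the stretch between successive members was 1.96 on pooled microchromosomes and 1.70 on pooled chromosomes 1 to 10. Within single microchromosomes it ran from 0.977 on chromosome 16 to 2.39 on chromosome 19, with a median of 1.82. Within single chromosomes from 1 to 10 it ran from 1.43 to 1.92, with a median of 1.64.

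When each span was divided into 10 equal bins, members were few in bins 2 to 4 and many in bin 10, the one with the highest coordinates. Bins 1 to 10, pooled over the 18 chromosomes, held 240, 139, 147, 166, 239, 250, 229, 237, 254 and 305 members. All H3K4me3 peaks followed a similar course, with 396, 259, 270, 301, 392, 393, 377, 392, 379 and 486 in bins 1 to 10. The average of bins 2 to 4 lay below the chromosome's own mean per bin on 16 of 18 microchromosomes, while bin 10 lay above that mean on 12 of 18 and bin 1 on 9 of 18. The share of H3K4me3 peaks that were members was lowest in bin 2 (53.7%; interval 47.6 to 59.6%) and highest in bin 9 (67.0%; interval 62.1 to 71.6%). In bin 10 it was 62.8% (interval 58.4 to 66.9%), an interval that holds the share of 60.5% over all bins. H3K27me3 peaks were most frequent in the same bin 10, with 284, and numbered 232 in bin 2, where members were fewest.

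**Figure D2:**
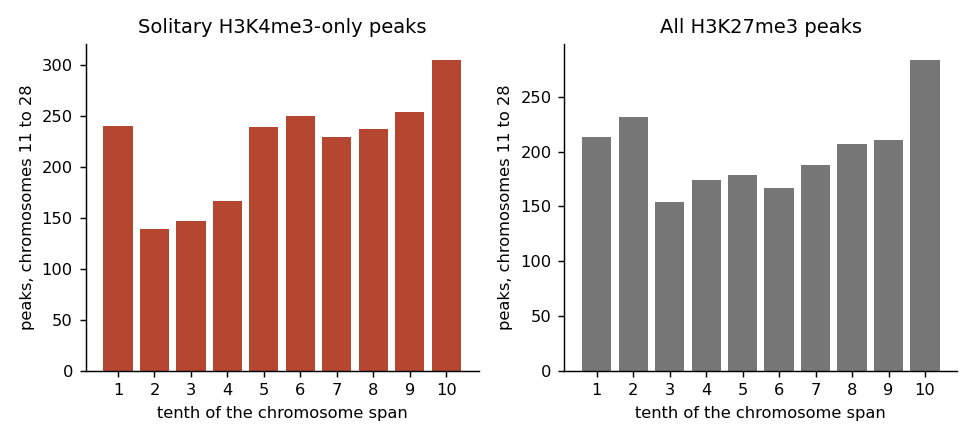
Number of solitary H3K4me3-only peaks (left) and of all H3K27me3 peaks (right) in each of 10 equal bins of the chromosome span, summed over chromosomes 11 to 28. Members number 139 in bin 2 and 305 in bin 10, and H3K27me3 peaks number 232 and 284 there.

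The members lay closer to their H3K4me3 neighbours in kb on microchromosomes, and about as close relative to the mean spacing of peaks. The median gap to the nearest other H3K4me3 peak was 10.9 kb on microchromosomes (quartiles 5.13 and 22.0 kb; interval of the median 10.3 to 11.6 kb) and 23.1 kb on chromosomes 1 to 10 (quartiles 9.74 and 49.6 kb; interval 21.8 to 23.9 kb). The rule admits no gap of 1000 bp or less, so these medians describe a trimmed set. The gap was within 5 kb for 24.2% of members on microchromosomes (interval 22.4 to 26.0%) and for 14.2% on chromosomes 1 to 10 (interval 13.2 to 15.2%). Divided by the mean spacing of H3K4me3 peaks of the same chromosomes, the median gap was 0.232 on microchromosomes and 0.237 on chromosomes 1 to 10. The median stretch between successive members was 29.3 kb on microchromosomes (interval 27.2 to 31.6 kb) and 65.7 kb on chromosomes 1 to 10 (interval 61.9 to 69.2 kb), and all 18 microchromosomes lay below the lowest of chromosomes 1 to 10.

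By chromosome, the median gap was largest on chromosome 12 (18.7 kb; interval 16.7 to 23.9 kb) and chromosome 11 (17.9 kb; interval 12.2 to 21.3 kb), the least dense microchromosomes. Chromosome 16 had 17.8 kb from its 11 members. Gaps of 13.4, 13.2, 12.4 and 12.2 kb were found on chromosomes 26, 14, 13 and 20, gaps of 11.8 and 10.5 kb on chromosomes 19 and 15, and gaps of 9.64, 9.59, 9.48 and 9.48 kb on chromosomes 17, 22, 28 and 21. The smallest were those of chromosomes 18, 27, 23, 24 and 25, with 8.68, 8.48, 7.86, 7.41 and 7.03 kb. Chromosomes 26 and 23 had similar densities but gaps of 13.4 kb (interval 10.7 to 16.7 kb) on chromosome 26 and 7.86 kb (interval 6.07 to 11 kb) on chromosome 23, intervals that overlap slightly. The correlation of span with median gap, 0.50 (Pearson) and 0.51 (Spearman), became 0.12 and 0.30 without chromosomes 11 and 12, so it rested on those chromosomes.

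The most isolated members were chr14:11111657-11112550, with 323.8 kb to the nearest H3K4me3 peak, chr13:4526806-4528123 with 268.2 kb, chr11:16833337-16834363 with 229.8 kb, chr15:3974148-3976478 with 222.9 kb and chr12:17190590-17191827 with 220.1 kb. Their scores were 133.95, 804.91, 1141.84, 3100 and 1584.23 in that order. For the members on chromosomes 14, 13 and 12 the nearest H3K27me3 peak lay at almost the same distance as the nearest H3K4me3 peak (322.8, 268.1 and 219.4 kb). The member on chromosome 11 lay 3.80 kb from an H3K27me3 peak, and the one on chromosome 15 lay 439.9 kb from any.

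The nearest H3K4me3 neighbour of a member was itself a member in 74.3% of cases on microchromosomes (interval 72.4 to 76.0%) and in 70.2% on chromosomes 1 to 10 (interval 68.8 to 71.5%). Neighbours that carried H3K27me3 made up 12.0% on microchromosomes (interval 10.7 to 13.4%) and 15.3% on chromosomes 1 to 10 (interval 14.3 to 16.4%). Neighbours left out only for a close H3K4me3 peak of their own made up 9.88% on microchromosomes and 11.1% on chromosomes 1 to 10. Wide neighbours, left out for their width of 2700 bp or more and carrying no H3K27me3, were 3.90% on microchromosomes (interval 3.17 to 4.79%) and 3.37% on chromosomes 1 to 10. The rule partly fixes these shares, since peaks in close pairs are the nearest neighbours of each other and seldom of a member. No excess or lack against all H3K4me3 peaks is therefore read from them. All H3K4me3 peaks differed between the sets in the same direction. Of those on microchromosomes 60.5% were members and 15.8% carried H3K27me3, against 56.6% and 19.3% on chromosomes 1 to 10.

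**Figure D3:**
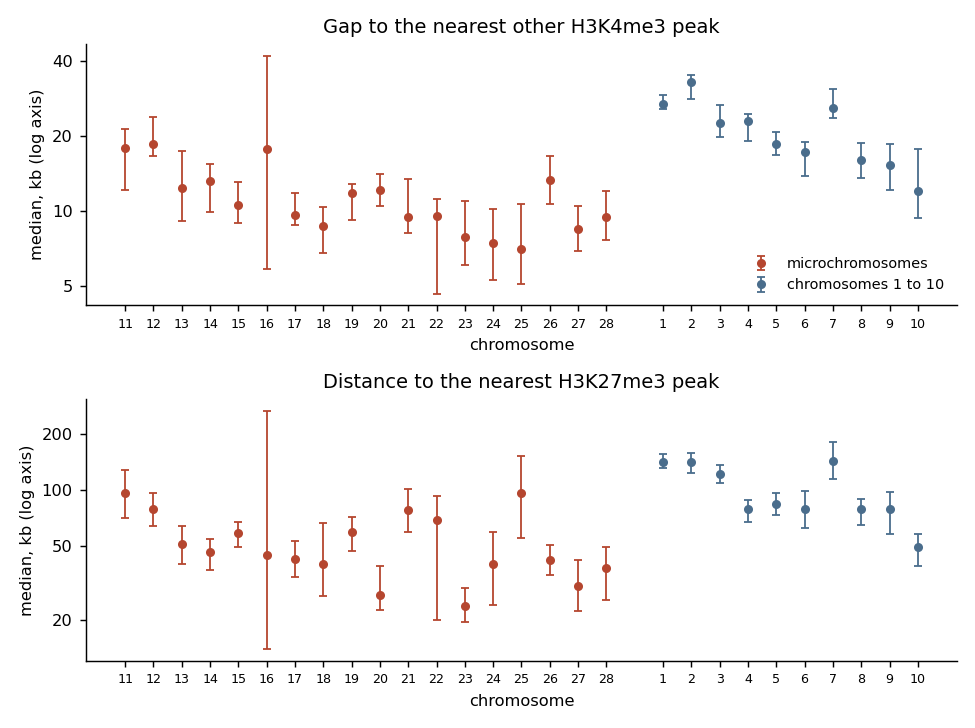
Median gap from a solitary peak to the nearest other H3K4me3 peak (top) and median distance to the nearest H3K27me3 peak (bottom) for each chromosome, in kb on log axes; bars are 95% order-statistic intervals, microchromosomes (red) left of chromosomes 1 to 10 (blue). The gap is smallest on chromosome 25 (7.03 kb), whose distance to H3K27me3 (96.4 kb) is among the largest of the microchromosomes.

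Although they shared no base with H3K27me3, the members on microchromosomes lay nearer to it in kb than their counterparts on the large chromosomes. The median distance, edge to edge, was 49.2 kb on microchromosomes (quartiles 17.6 and 111.1 kb; interval of the median 46.0 to 53.0 kb) and 105.4 kb on chromosomes 1 to 10 (quartiles 42.1 and 229.8 kb; interval 100.2 to 111.3 kb). An H3K27me3 peak lay within 5 kb of 8.02% of members on microchromosomes (177 members; interval 6.96 to 9.23%) and of 4.08% on chromosomes 1 to 10 (also 177 members; interval 3.53 to 4.71%). Within 20 kb these shares were 27.4% (interval 25.6 to 29.3%) and 12.7% (interval 11.7 to 13.7%), and within 100 kb 72.3% and 48.4%. Divided by the mean spacing of H3K27me3 peaks, the median distance was 0.577 on microchromosomes and 0.497 on chromosomes 1 to 10. Relative to that spacing the pooled median was larger on microchromosomes, the reverse of the order in kb. Single chromosomes overlapped widely, from 0.373 to 1.04 on microchromosomes and from 0.393 to 0.826 on chromosomes 1 to 10. Members with H3K27me3 on 1 side only were 8.79% on microchromosomes and 1.13% on chromosomes 1 to 10. Without them the microchromosome median was 44.0 kb, and the relative distance was not recomputed, so no difference is read from it. Chromosome 10 alone had a median of 49.2 kb, as had the pooled microchromosomes. H3K27me3 was nearer than any other H3K4me3 peak for 19.9% of members on microchromosomes (interval 18.2 to 21.6%) and for 17.8% on chromosomes 1 to 10 (interval 16.7 to 19.0%).

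Over the 18 microchromosomes the median distance had a Spearman correlation of -0.80 with the number of H3K27me3 peaks per Mb (Pearson -0.67), and of -0.20 with the number of members per Mb (Pearson -0.07). The first was -0.74 without chromosomes 23 and 27, and the second -0.32 without chromosomes 25 and 28. More H3K27me3 peaks per Mb leave shorter distances to them by geometry alone. The first correlation is therefore partly fixed in advance and is not on a par with the second. Members came closest to H3K27me3 on chromosome 23, with a median of 23.8 kb (interval 19.5 to 29.9 kb), chromosome 20 with 27.4 kb (interval 22.7 to 39.3 kb) and chromosome 27 with 30.6 kb (interval 22.4 to 42.4 kb). On chromosome 23, 29.3% of the members had H3K27me3 as their nearest neighbour of either mark, the highest share of all microchromosomes, and on chromosome 27, 17.8% lay within 5 kb of it. Medians were 38.0 kb on chromosome 28, 40.3 kb on chromosome 24, 40.4 kb on chromosome 18, 42.4 kb on chromosome 26, 42.7 kb on chromosome 17, 44.8 kb on chromosome 16, 46.7 kb on chromosome 14 and 51.2 kb on chromosome 13. Larger ones were found on chromosome 15 with 58.6 kb, chromosome 19 with 59.8 kb, chromosome 22 with 69.0 kb, chromosome 21 with 78.2 kb and chromosome 12 with 78.6 kb. Chromosome 11 with 96.6 kb (interval 70.9 to 128.6 kb) and chromosome 25 with 96.4 kb (interval 55.0 to 152.0 kb) had the largest.

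On some short chromosomes many members lay towards an end that held no H3K27me3 peak. On chromosome 16, 9 of the 11 members lay outside its 6 H3K27me3 peaks, 3 at lower and 6 at higher coordinates, and its median of 44.8 kb became 11.7 kb for the 2 members with H3K27me3 on both sides. Chromosome 25 had 15 H3K27me3 peaks, all between 0.315 and 1.69 Mb of a span of 2.18 Mb, and 33 of its 59 members lay outside them, 28 of these on the side of the higher coordinates. Chromosome 22 had its last H3K27me3 peak end at 2.92 Mb of 4.06 Mb, and 20 of its 54 members lay beyond the outermost H3K27me3 peaks. Taking only members with H3K27me3 on both sides, the median was 35.4 kb on chromosome 25 (26 members), 18.2 kb on chromosome 22 (34 members) and 97.1 kb on chromosome 11 (158 members). Over all microchromosomes 8.79% of members had H3K27me3 on 1 side only (interval 7.68 to 10.0%), against 1.13% on chromosomes 1 to 10.

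The 5 members farthest from H3K27me3 all lay at the end of chromosome 22. They were chr22:4063097-4064155, chr22:4060511-4062051, chr22:4027336-4028474, chr22:4002080-4003044 and chr22:3988803-3991337, and lay 1147, 1144, 1111, 1086 and 1072 kb away. Their scores were 1081.69, 2198.47, 606.25, 240.8 and 2349.86. The 5 nearest lay on different chromosomes. The member chr12:16069697-16071372 touched an H3K27me3 peak of 890 bp without sharing a base. Those at chr28:2535706-2536455, chr21:2144449-2145606, chr20:463281-464937 and chr14:13562431-13564120 lay 90, 93, 115 and 119 bp from one. The first 3 of these 5 had low scores of 248.5, 66.95 and 183.15, whereas those on chromosomes 20 and 14 scored 2418.63 and 1659.1.

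Members near H3K27me3 were narrower and scored lower than the rest, but the rule may partly fix this. Close to H3K27me3 a wider peak more readily shares a base with it and is left out, and score rose with width. On microchromosomes the peaks that shared bases with H3K27me3 had a median width of 1479 bp and a median score of 400.1. How much of the difference comes from the rule was not tested. On microchromosomes the 38 members within 1 kb had a median width of 1225 bp and a median score of 712.9 (interval 266.4 to 1278), and the 139 members at more than 1 and up to 5 kb had 1413 bp and 924.4 (interval 767.0 to 1289). From 5 to 20 kb the median score was 1313 (428 members; interval 1155 to 1420), and from 20 to 50 kb it was 1457 (510 members; interval 1378 to 1589). Beyond that it changed little, with 1501 from 50 to 100 kb, 1460 from 100 to 200 kb and 1364 at more than 200 kb, intervals that overlap. The members of chromosomes 1 to 10 had median scores of 740.9 within 1 kb (44 members) and 996.0 from 1 to 5 kb (133 members), against 1640 from 50 to 100 kb. Across all members of the microchromosomes the Spearman correlation of distance and score was only 0.08.

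The H3K27me3 peak nearest to a member often carried an H3K4me3 peak of its own. Such a peak was the nearest for 45.6% of members on microchromosomes (interval 43.5 to 47.7%) and for 64.5% on chromosomes 1 to 10 (interval 63.1 to 65.9%). Counting each H3K27me3 peak once, the 2206 members had 746 different nearest peaks, or 37.1% of the 2009 H3K27me3 peaks of their chromosomes, and 42.2% of the 746 shared bases with H3K4me3 (interval 38.7 to 45.8%), compared with 28.5% of all 2009 (interval 26.5 to 30.5%). On chromosomes 1 to 10 the values were 60.9% of 1487 different nearest peaks (interval 58.4 to 63.4%) and 42.2% of all 3526. An H3K27me3 peak inside a cluster of its own mark can seldom be the nearest to a member. The differences from all H3K27me3 peaks are therefore partly fixed by where the peaks lie, and no conclusion is drawn from them. One H3K27me3 peak was the nearest for as many as 33 members.

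Width varied little between the microchromosomes and the large ones. The median was 1560.5 bp on microchromosomes (quartiles 1249.5 and 1893.5 bp; interval 1530 to 1584 bp) and 1552.5 bp on chromosomes 1 to 10 (quartiles 1271 and 1885 bp; interval 1539 to 1569 bp), under a rule that cuts widths at 2700 bp. Among the microchromosomes, members were widest in the median on chromosome 17 (1670 bp; interval 1506 to 1729 bp), chromosome 14 (1648 bp) and chromosome 15 (1617 bp). They were narrowest on chromosome 25 (1384 bp; interval 1303 to 1670 bp), chromosome 24 (1430 bp), chromosome 21 (1448.5 bp), chromosome 28 (1454.5 bp), chromosome 27 (1459.5 bp) and chromosome 16 (1462 bp). The other 9 lay between 1511 bp on chromosome 26 and 1593.5 bp on chromosome 23, with 1525.5 bp on chromosome 22, 1554.5 bp on 12, 1567 bp on 11, 1571.5 bp on 13, 1574 bp on 20, 1575 bp on 19 and 1592 bp on 18. Most of these intervals overlap. Span and median width had correlations of 0.63 (Pearson) and 0.56 (Spearman) over the 18 chromosomes, and of 0.72 and 0.63 without chromosomes 11 and 12.

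The widest member of each microchromosome came close to the limit of 2700 bp except on chromosome 16, where chr16:138472-140609 was 2138 bp wide. On chromosomes 11, 13, 18, 19 and 21 it exceeded 2680 bp. These were the 5 widest of all, the last 2 in rank being chr18:9470256-9472941 (2686 bp) and chr19:30287-32968 (2682 bp). The score of these wide members differed greatly. It was 3100 at chr13:7790467-7793154, chr16:138472-140609, chr18:9470256-9472941, chr22:332498-335092, chr24:437150-439697 and chr25:325065-327583. It was only 588.77 at chr12:9015655-9018282, 686.07 at chr28:4388466-4391055 and 899.86 at chr17:7600657-7603326. The remaining 9 scored between 1064.54 (chromosome 11) and 2656.04 (chr27:3090897-3093459). These included chr14:8634790-8637465 with 1388.07, chr15:9875943-9878597 with 1623.37, chr20:3043189-3045807 with 1388.34, chr23:5258491-5261154 with 1934.41 and chr26:4972403-4974991 with 1944.99. The narrowest members were chr15:6836324-6836768 (445 bp), chr26:1114992-1115472 (481 bp), chr16:222022-222558 (537 bp), chr15:7521033-7521595 (563 bp) and chr15:11054028-11054596 (569 bp), with scores of 338.94, 52.05, 810.27, 222.39 and 81.99.

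**Figure D4:**
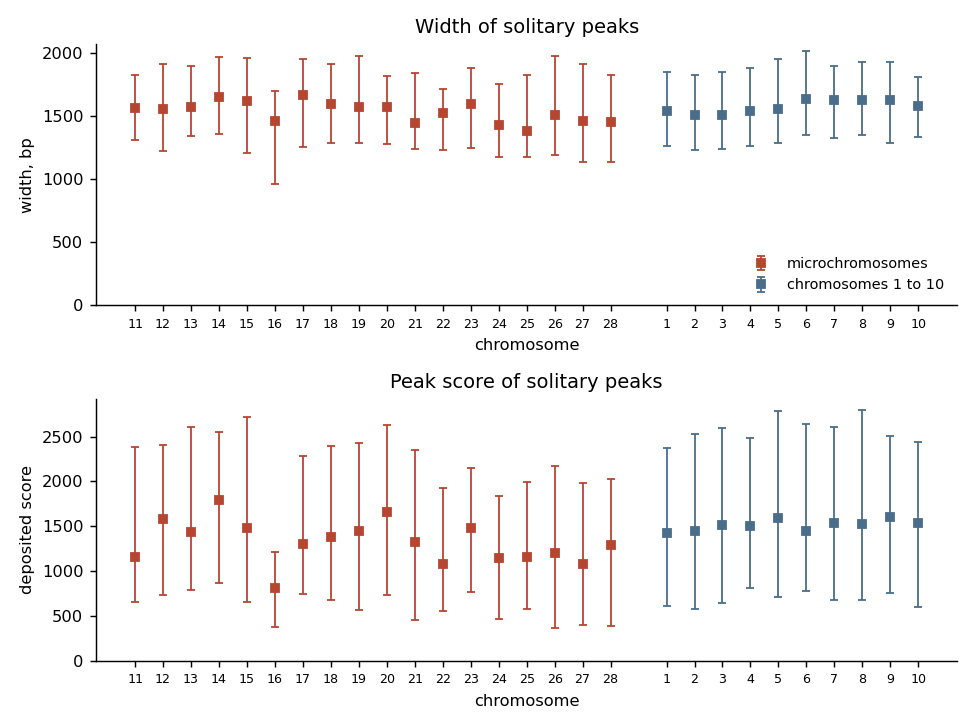
Median width in bp (top) and median deposited score (bottom) of solitary peaks on each chromosome, microchromosomes (red) left of chromosomes 1 to 10 (blue); bars run from the lower to the upper quartile. Median scores range from 810.3 on chromosome 16 to 1796 on chromosome 14 among microchromosomes and from 1421 to 1598 among chromosomes 1 to 10.

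Scores were somewhat lower on microchromosomes, and tended to be lower on the shorter ones, although chromosome 11, which is long, was also low. The median score was 1389 on microchromosomes (quartiles 611.8 and 2379; interval 1336 to 1455) and 1491 on chromosomes 1 to 10 (quartiles 668.3 and 2543; interval 1440 to 1547), intervals that just overlap. The top of the scale was reached by 13.1% of members on microchromosomes (289 members; interval 11.8 to 14.6%) and by 16.1% on chromosomes 1 to 10 (698 members; interval 15.0 to 17.2%). On 11 of 18 microchromosomes the median score lay below the lowest of chromosomes 1 to 10, and on chromosomes 14 and 20 it lay above the highest. Each of these medians had an interval that holds the value it was set against, 1421 on chromosome 1 or 1598 on chromosome 9. No shift of a single chromosome is therefore read from these counts. Scores under 100 had shares whose intervals overlap, with 4.67% on microchromosomes (interval 3.86 to 5.63%) and 4.96% on chromosomes 1 to 10 (interval 4.35 to 5.65%).

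Chromosome 14 had the highest median score, 1796 (interval 1504 to 1996), followed by chromosome 20 with 1658, chromosome 12 with 1578, chromosome 23 with 1480, chromosome 15 with 1478, chromosome 19 with 1450 and chromosome 13 with 1440. Chromosome 18 had 1383, chromosome 21 had 1327, chromosome 17 had 1301, chromosome 28 had 1285 and chromosome 26 had 1206. Low medians were those of chromosome 11 with 1158 (interval 998.7 to 1465), chromosome 25 with 1152, chromosome 24 with 1144, chromosome 27 with 1083, chromosome 22 with 1076 and chromosome 16 with 810.3. Intervals of neighbours in this order overlap. The share of members at the top of the scale was highest on chromosome 13 (19.2%) and chromosome 15 (18.4%), and lowest on chromosome 25 (5.08%), chromosome 22 (5.56%) and chromosome 26 (7.07%). Span and this share had correlations of 0.69 (Pearson) and 0.73 (Spearman) over the 18 chromosomes, and of 0.87 and 0.86 without chromosomes 11 and 12. With the median score the correlations were 0.66 and 0.70, and 0.82 and 0.81 without that pair.

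The highest score value of all members, 3233.06, was given to chr13:391976-393878, chr13:8762945-8764677 and chr28:830824-832390. The next values were those of chr11:907083-908899 with 3230.05 and chr20:6682387-6683562 with 3225.28. The value 3233.06 was also the highest in the whole H3K4me3 list and was shared by 5 members of chromosomes 1 to 10, so it may be a limit itself. If the tie at 3100 is a limit, these 5 microchromosome members cannot be ranked above the members at 3100. None of these 5 was among the widest members; the one on chromosome 20 was 1176 bp wide and the only member under 1250 bp at the top of the scale. The lowest scores were those of chr26:1114992-1115472 (52.05), chr12:1161889-1162691 (52.1), chr11:16240671-16241660 (52.72), chr12:14921252-14922052 (53.27) and chr11:2623835-2624744 (53.61).

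Wider members had higher scores in both sets, with a smaller difference between narrow and wide members on microchromosomes. If the score is a transformed p-value, it grows with peak size, and part of the rise with width is fixed in advance. How large that part is was not tested. A median of 3100 would then be a lower bound, so the size of the difference on chromosomes 1 to 10 is not known. Over members the Spearman correlation of width and score was 0.64 on microchromosomes (2206 members) and 0.72 on chromosomes 1 to 10 (4336 members). Among members under 1250 bp the median score was 410.7 on microchromosomes (552 members; interval 369.8 to 485.6) and 314.9 on chromosomes 1 to 10 (1021 members; interval 275.1 to 355.0). From 1250 bp to less than 2000 bp it was 1560 on microchromosomes (1228 members; interval 1464 to 1630) and 1612 on chromosomes 1 to 10 (2506 members; interval 1558 to 1660). At 2000 bp or more it was 2753 on microchromosomes (426 members; interval 2528 to 3006) and 3100 on chromosomes 1 to 10 (809 members; interval 3097 to 3100). Of these wide members 43.7% reached the top of the scale on microchromosomes (interval 39.0 to 48.4%) and 53.3% on chromosomes 1 to 10 (interval 49.8 to 56.7%). The share was lowest on chromosomes 25, 26 and 28, where 25% of 8, 26.1% of 23 and 26.1% of 23 members of 2000 bp or more reached the top, and the intervals were wide (7.15 to 59.1% on chromosome 25). On chromosome 15 it was 61.0% of 41 (interval 45.7 to 74.3%).

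**Figure D5:**
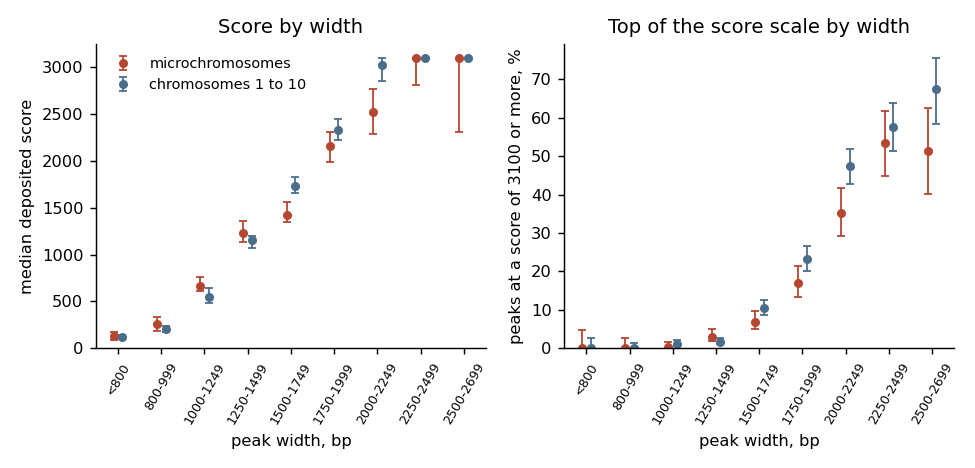
Median deposited score (left) and percentage of solitary peaks at a score of 3100 or more (right) in 9 classes of width, for microchromosomes (red) and chromosomes 1 to 10 (blue); bars are 95% intervals. Below 1500 bp the microchromosome medians are the higher ones, and from 1500 to 2249 bp the lower ones (2528 against 3024 at 2000 to 2249 bp). From 2250 bp upwards the medians of both sets are 3100. The intervals of the medians overlap in every class below 1500 bp and at 1750 to 1999 bp.

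Members with the smallest gaps to an H3K4me3 neighbour had the lowest median width and score, but the rule may partly fix this. Gaps are edge to edge, so at a given spacing of centres a wider peak has a smaller gap and is more readily left out. On microchromosomes the peaks left out only for a close H3K4me3 peak had a median width of 1002.5 bp and a median score of 605.3. How much of the difference comes from the rule was not tested. On microchromosomes the 126 members with a gap of 2 kb or less had a median width of 1375.5 bp and a median score of 1036 (interval 774.2 to 1374). The median score was 1293 at gaps of 2 to 5 kb (interval 1133 to 1423), 1327 at 5 to 10 kb (interval 1219 to 1390), 1479 at 10 to 20 kb (interval 1380 to 1630) and 1548 at 20 to 50 kb (475 members; interval 1399 to 1719). Beyond 50 kb it was 1407 (152 members), with an interval of 1248 to 1793 that overlaps that of the smallest gaps, so the order was not kept to the end. On chromosomes 1 to 10 the median score was 849.7 at 2 kb or less (238 members), 1708 at 20 to 50 kb (1273 members) and 1558 beyond 50 kb (1077 members). The Spearman correlation of gap and score was 0.08 over the members on microchromosomes.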

How the data were processed

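The authors deposited 1 list of peaks for H3K4me3 and 1 for H3K27me3, each with the start, end and score of every peak; per the file headers the caller was MACS, run in Galaxy. The submitters' processing notes list BWA, MACS2 and the galGal4 build and give no versions. Not given in the sources used here are the filters and whether the Input served as control. The score is the deposited value of the peak caller on an unnamed scale. It was compared within the H3K4me3 list only, and in the H3K27me3 list it served only to filter peaks in an alternative. The lists hold no read counts, so depth is unknown and absence of a peak does not show absence of the mark. Input reads were not used here.

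Membership, distances and densities were computed in Python 3.11.15 with pandas 2.3.3, numpy 2.4.6 and SciPy 1.17.1. Distances are edge to edge, and the gap is the number of bases between peaks. Coordinates are on galGal4 and count from 1. No numbered chromosome held a start below 0, and no peaks overlapped within a list. Sequences labelled as random parts of chromosomes from 11 upwards (40 H3K4me3 peaks) stand outside the rule. The rule was tested on simulated peaks of known class. The members, the classes and the regions to be named were chosen with earlier results of these data known. Regions were named as the widest member of each microchromosome, the 5 most extreme members in width, score, gap and distance, and the 3 peaks on each side of each limit. Base composition, sequence and genes were not used, since no genome or annotation of galGal4 was used here. All measures of the members come from the lists that chose them and are descriptions without tests.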

Additional observations from a re-analysis of the deposited data

How the results depend on the processing

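The 9 pooled values were recomputed under 15 settings, 105 values in all. Of these, 70 stayed within the interval of the value given above (for the number and density of members, within 1.5 times of it), 35 moved, and in none did the density ratio fall below 1. With H3K4me3 scores at or above the median of their list, 1468 members remained, at 8.57 per Mb and a ratio of 2.10; they were 80.2% of those peaks, with a median width of 1711 bp, score of 2152, top share of 21.8% and gap of 20.2 kb. With scores of at least 100, the share was 64.1% and the gap 11.8 kb. A limit of 5 kb on the gap gave a ratio of 1.96, a share of 45.9%, a width of 1586 bp and a gap of 15.1 kb, and no such limit gave a share of 79.7%, a width of 1432 bp, a score of 1224, a top share of 11.4% and a gap of 6.88 kb. A width limit of 2000 bp gave a share of 48.8%, a width of 1431 bp, a score of 1185 and a top share of 5.79%; no width limit gave 64.3%, 1595 bp, 1465 and 16.3%. Without the 1 Mb window with most members on each chromosome, the ratio was 2.01, the share 58.7% and the gap 12.2 kb. That setting removed a larger part of the 171 Mb span of microchromosomes than of the 747 Mb of chromosomes 1 to 10. By design it therefore tends to lower the ratio. Beside chromosomes 1 to 5 the ratio was 2.35. H3K27me3 scores at or above the median gave a share of 64.6% and a median distance to H3K27me3 of 75.3 kb. With all H3K27me3 peaks kept, the median distance of 49.2 kb became 44.0 kb for members with H3K27me3 on both sides. That setting was chosen after the data were seen. Between midpoints the gap was 12.5 kb. Across these settings the density ratio ran from 1.96 to 2.35. No paired analysis was possible because each mark had 1 library and no test was made. Base composition, sequences and genes at the members were not run. Without read counts the limits set by depth cannot be given, and H3K27me3 below the threshold of the peak call is not seen in these lists.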
